A study of Mus musculus with 8 samples.

Results

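The genes that present peptides to T cells were followed in RNA-seq counts of the soleus, a calf muscle that holds posture. The counts came from 4 control mice (Dnm2 +/+) and 4 heterozygous knock-in mice (Dnm2 +/K562E). The members were chosen by name, as the rows of the count files whose Ensembl identifier carries the symbol of 1 of 10 genes, and all 10 were found among the 22880 genes listed per mouse. Of these members, 5 belong to the class II pathway (H2-Aa, H2-Ab1, H2-Eb1, Cd74 and Ciita) and 5 to the class I pathway (H2-K1, H2-D1, B2m, Tap1 and Nlrc5). All mice were males of the C57BL/6 background (the J substrain in the study's methods), 2 months of age. The mutation lies in the endogenous Dnm2 gene, which encodes the membrane-scission GTPase dynamin 2, so every cell type of the muscle carries it, and a single exchanged base cannot be checked from gene counts. The study checked the base in its sequencing reads. It reported no K562E transcripts in controls and similar amounts of both alleles' transcripts in Dnm2 +/K562E soleus. The comparison asks whether peptide presentation differs between the genotypes at the level of RNA.

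MHC class I molecules stand on nearly all nucleated cells and show peptides made inside the cell to CD8 T cells, whereas MHC class II molecules are made mainly by professional antigen-presenting cells (dendritic cells, macrophages and B cells) and show peptides from engulfed material to CD4 T cells. A class I molecule is a heavy chain paired with beta-2-microglobulin and is loaded in the endoplasmic reticulum, where the TAP transporter delivers peptides. A class II molecule is a pair of an alpha and a beta chain that travels to endosomes with the invariant chain Cd74. The coactivators CIITA and NLRC5 act at a shared promoter architecture and drive class II and class I genes, respectively. Resting muscle fibres make little class I and no appreciable class II.

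Total counts ran from 33407430 to 48832814 per mouse, and the count files listed the fibre genes of the soleus at high levels, with means between 1015 and 24360 normalized CPM over the 6 genes followed. Normalized CPM are counts scaled to a common library total (CPM) after scaling each library by its TMM factor, which was 0.91 to 0.96 in controls and 1.037 to 1.103 in Dnm2 +/K562E mice. Control 4 stood apart from the other controls in the class II genes and in macrophage markers, so that the class II folds, list counts, correlations and marker ratios are also given without it. Genotypes were compared with the quasi-likelihood test of edgeR with Benjamini-Hochberg adjustment over 14001 tested genes. A call needed an adjusted p below 0.05 and a change of 0.58 or more on the log2 scale. Of all tested genes, 12.9% were called higher in Dnm2 +/K562E mice (1806 genes) and 7.85% lower (1099 genes). Scaling by library size alone gave 2865 higher and 564 lower.

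All 5 class II members were called higher in Dnm2 +/K562E muscle, and 0 of 5 class I members were called in either direction. The median log2 fold change was 1.31 over the class II members and -0.06 over the class I members, beside 0.01 over all tested genes. Calls of at least 1 on the log2 scale were 5 of 5 for class II, 0 of 5 for class I and 6.98% of all tested genes in the higher direction. Over the class II members the fold change ran from 1.22 to 1.39 on the log2 scale, and over the class I members from -0.20 to 0.13. Without normalization beyond library size the median of all genes moved to 0.22, and the class I median became 0.15, with H2-K1, H2-D1 and Nlrc5 at 0.02, 0.15 and 0.01 in place of values below 0. In that scaling B2m was at 0.34 and passed the adjusted p alone (edgeR, 0.0214), and Tap1 was at 0.30 and did not (0.153).

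The promoters of 5 members hold the letters of elements at which CIITA and NLRC5 complexes are known to act, and they are shown because members of both classes carry them while only class II members were called. RefSeq windows of GRCm38.p6, from 250 bases before to 50 after the start of transcription, were searched on both strands for TGANG, the core of the X2 box, followed after 15 to 25 bases by ATTGG, the Y box that NF-Y binds. The windows of H2-Aa, H2-Eb1, H2-K1, H2-D1 and B2m held the pair, that of Tap1 did not, and 4 members (H2-Ab1, Cd74, Ciita and Nlrc5) were not searched. Over all genes with a window, 863 of 27025 (3.19%) held it. The motifs were chosen with the members' sequences in view. Each stretch runs 5′ to 3′ on the strand of the gene, with 30 bases before and 10 after the pair and with TGANG and ATTGG in capitals.
H2-Aa, chr17:34287857-34287927, minus strand: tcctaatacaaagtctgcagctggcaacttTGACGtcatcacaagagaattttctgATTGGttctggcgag
H2-Eb1, chr17:34305754-34305822, plus strand: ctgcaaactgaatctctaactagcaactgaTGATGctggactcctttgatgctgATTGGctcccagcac
H2-K1, chr17:34000349-34000418, minus strand: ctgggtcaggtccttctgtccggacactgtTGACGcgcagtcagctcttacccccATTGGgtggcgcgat
H2-D1, chr17:35262963-35263032, plus strand: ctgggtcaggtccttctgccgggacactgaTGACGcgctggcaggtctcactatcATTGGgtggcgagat
B2m, chr2:122147579-122147648, plus strand: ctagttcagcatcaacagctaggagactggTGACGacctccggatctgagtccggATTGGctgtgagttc

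The spacing between the capitals was 21 bases in H2-Aa, 19 in H2-Eb1 and 20 in H2-K1, H2-D1 and B2m. The first capital lay 74 bases before the RefSeq start in H2-Aa, 83 in H2-Eb1, 41 in H2-K1, 101 in H2-D1 and 78 in B2m. H2-K1 has more than 1 start listed, of which the first was used. The full palindrome TGACGTCA was found in H2-Aa alone among the 6 windows and in 2.03% of all windows. Motifs of the interferon-response type also occurred in the class I windows and, among class II loading genes, in that of Ctss, which held both forms. The longer of them, GAAA, 2 bases of any kind and GAAA, was found in B2m and in 3.99% of all windows, and the shorter, GAANNGAAA, in H2-K1 and H2-D1 and in 8.68%. Among genes of class II peptide loading, 4 of 10 windows held the pair, among the other class I heavy chain genes 4 of 11, and among those of class I peptide supply 0 of 6. Of the 5 class II members only H2-Aa and H2-Eb1 were searched.

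**Figure D1:**
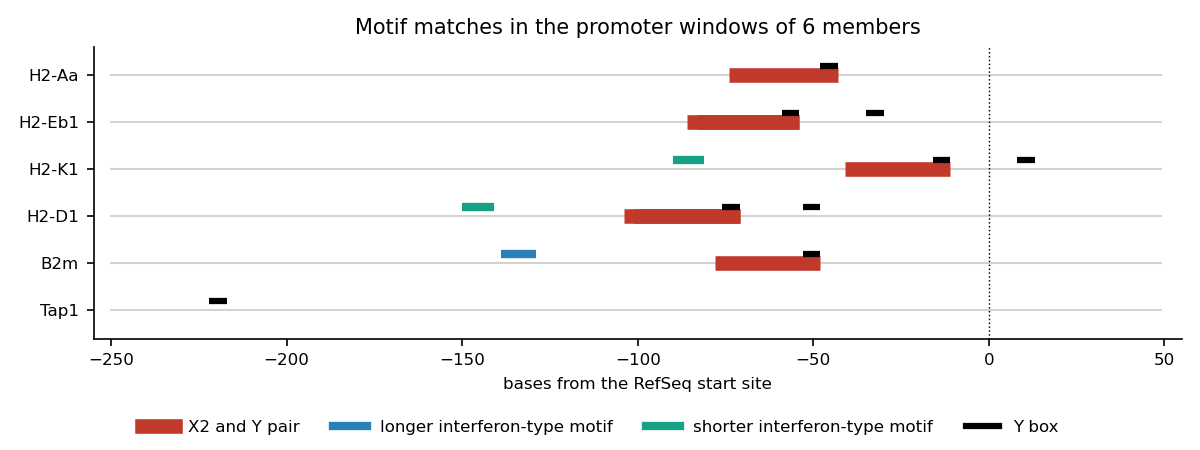
Positions of motif matches in the promoter windows of 6 members, in bases from the RefSeq start site (dotted line at 0), with the X2 and Y pair in red, Y boxes in black, the longer interferon-type motif in blue and the shorter (GAANNGAAA) in green. The red pair lies within about 100 bases before the start in H2-Aa, H2-Eb1, H2-K1, H2-D1 and B2m, and Tap1 has a single Y box and no pair.

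H2-Aa (chromosome 17, 34282744 to 34287823, minus strand, GRCm38) encodes the class II alpha chain of the I-A molecule. Its level was 24.9, 27.1, 25.6 and 56.3 normalized CPM in controls 1 to 4 and 91.7, 85.8, 84.9 and 70.2 normalized CPM in Dnm2 +/K562E mice 1 to 4. Every Dnm2 +/K562E mouse was above every control, with control 4 standing between the other controls and the mutants. The mean was 33.5 ± 15.3 in controls and 83.1 ± 9.14 in Dnm2 +/K562E mice (normalized CPM, SD, n = 4), which corresponds to a log2 fold change of 1.31 ± 0.24 (SE, edgeR quasi-likelihood test, adjusted p = 0.00116). The raw counts behind these levels were 834 to 3690 reads per mouse.

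H2-Ab1 (chromosome 17, 34257689 to 34269419, plus strand), the beta chain of the same molecule, read 18.6, 18.2, 20.1 and 40.2 normalized CPM in controls and 72.4, 63.8, 60.7 and 57.6 normalized CPM in Dnm2 +/K562E mice. The genotypes did not overlap and control 4 was again the highest control. The log2 fold change was 1.39 ± 0.23 (SE, edgeR adjusted p = 6.14e-04), the largest among the 10 members. H2-Eb1 (chromosome 17, 34305867 to 34316674, plus strand) encodes the beta chain of the I-E molecule. It read 17.6, 16.9, 17.6 and 33.4 normalized CPM in controls and 57.6, 54.0, 53.1 and 49.2 normalized CPM in Dnm2 +/K562E mice, again without overlap, and changed by 1.32 ± 0.20 on the log2 scale (SE, edgeR adjusted p = 3.06e-04). The gene of the I-E alpha chain, a pseudogene by its symbol (H2-Ea-ps), was not in the count files. Beta chain RNA alone therefore does not show that an I-E molecule is made.

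Cd74 (chromosome 18, 60803848 to 60812652, plus strand), the invariant chain that escorts class II dimers and plugs their groove, was the class II member with the highest level per length. It read 58.5, 68.7, 62.3 and 142 normalized CPM in controls and 217, 205, 200.5 and 150.2 normalized CPM in Dnm2 +/K562E mice. The genotypes did not overlap, but control 4 came close to Dnm2 +/K562E mouse 4, the lowest mutant. The log2 fold change was 1.22 ± 0.26 (SE, edgeR adjusted p = 0.00284).

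Ciita (chromosome 16, 10480059 to 10528418, plus strand), the class II transactivator, was the rarest class II member, with 33 to 87 reads in controls and 74 to 171 reads in Dnm2 +/K562E mice. Its level was 1.16, 0.98, 0.963 and 2.56 normalized CPM in controls and 4.64, 3.79, 3.44 and 2.00 normalized CPM in Dnm2 +/K562E mice. Here the groups overlapped, since control 4 exceeded Dnm2 +/K562E mouse 4. The log2 fold change was 1.30 ± 0.35 (SE, edgeR adjusted p = 0.0121). Exons of Ciita overlap those of Dexi on the other strand, and whether strand was used in counting is not stated in the sources used here, so part of the Ciita reads may belong to Dexi. Without overlap between genotypes and higher in Dnm2 +/K562E mice were 4 of 5 class II members, 0 of 5 class I members and 20.6% of all tested genes.

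Leaving out control 4 raised the log2 fold change of H2-Aa to 1.68, of H2-Ab1 to 1.74, of H2-Eb1 to 1.62, of Cd74 to 1.60 and of Ciita to 1.74. Leaving out Dnm2 +/K562E mouse 4, the mutant with the lowest class II levels, gave 1.39, 1.44, 1.36, 1.32 and 1.49 for the same genes. All 5 class II members were called higher whichever mouse was left out.

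**Figure D2:**
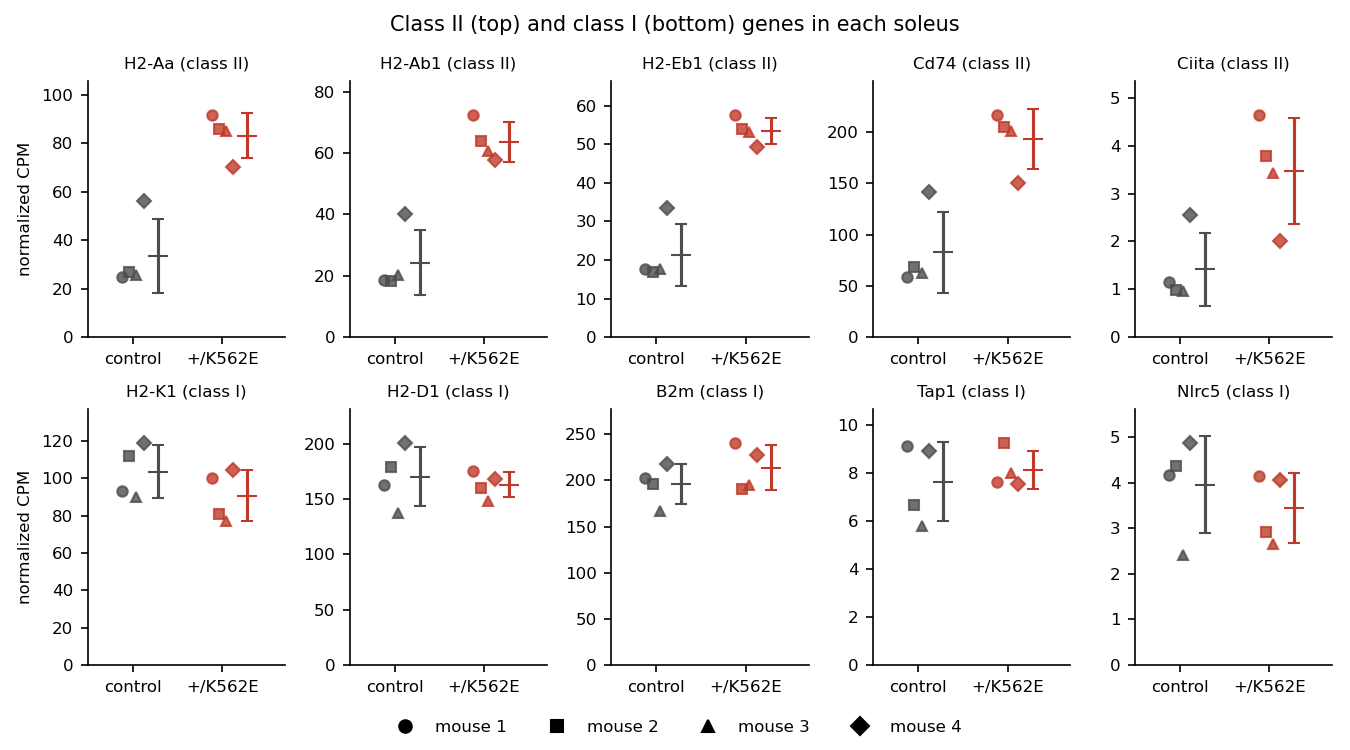
Normalized CPM (vertical axes, linear, starting at 0) of the 5 class II members in the upper row and the 5 class I members in the lower row, in each of 4 control (grey) and 4 Dnm2 +/K562E (red) mice, with mean and SD beside the points and 1 symbol per mouse number within a genotype. The class II points of Dnm2 +/K562E mice lie above those of controls except for Ciita, control 4 (grey diamond) is the highest control in every class II panel, and the class I points of both genotypes overlap.

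The class I heavy chain genes did not pass the test. H2-K1 (chromosome 17, 33996017 to 34000347, minus strand) read 93.3, 112, 89.8 and 119 normalized CPM in controls and 100.3, 81.0, 77.1 and 104 normalized CPM in Dnm2 +/K562E mice. The ranges overlapped and the lowest values were those of 2 Dnm2 +/K562E mice. The log2 fold change was -0.19 ± 0.12 (SE, edgeR adjusted p = 0.222), with a 95% interval from -0.46 to 0.07. H2-D1 (chromosome 17, 35262730 to 35267499, plus strand) read 163, 179, 138 and 201 normalized CPM in controls and 176, 160.3, 148 and 168 normalized CPM in Dnm2 +/K562E mice, and all mutant values fell within the control range. Its log2 fold change was -0.06 ± 0.11 (SE, edgeR adjusted p = 0.666), with a 95% interval from -0.29 to 0.17.

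The transcripts of these heavy chains resemble each other. Of the 31-base stretches in H2-K1 transcripts, 22.8% also occurred in transcripts of other genes, most often those of H2-D1, and of those in H2-D1 26.9% did. Reads from such stretches could be counted at the wrong gene or dropped, and the separate levels of H2-K1 and H2-D1 are therefore less certain than those of the class II members, of which at most 2.77% was shared.

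B2m (chromosome 2, 122147686 to 122153083, plus strand), which encodes the light chain common to class I molecules, had no shared stretch, and its printed promoter stretch, like those of H2-K1 and H2-D1, carries the same pair of motifs as those of H2-Aa and H2-Eb1. It read 203, 196, 166 and 218 normalized CPM in controls and 241, 191, 195 and 228 normalized CPM in Dnm2 +/K562E mice, with overlapping ranges. Its log2 fold change was 0.13 ± 0.10 (SE, edgeR adjusted p = 0.324), with a 95% interval from -0.09 to 0.34. Tap1 (chromosome 17, 34187553 to 34197225, plus strand), a subunit of the peptide transporter, read 9.15, 6.68, 5.80 and 8.92 normalized CPM in controls and 7.63, 9.27, 7.99 and 7.57 normalized CPM in Dnm2 +/K562E mice. The controls spread more widely than the mutants, and the log2 fold change was 0.09 ± 0.15 (SE, edgeR adjusted p = 0.66, 95% interval from -0.25 to 0.43). Tap1 exons overlap those of Psmb9 on the other strand.

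Nlrc5 (chromosome 8, 94434356 to 94527272, plus strand), the class I transactivator, read 4.17, 4.37, 2.42 and 4.89 normalized CPM in controls and 4.16, 2.93, 2.65 and 4.05 normalized CPM in Dnm2 +/K562E mice. Control 3 was the lowest of the 8 mice and the ranges overlapped. The log2 fold change was -0.20 ± 0.24 (SE, edgeR adjusted p = 0.527), with a 95% interval from -0.72 to 0.32. The intervals of the 5 class I members reached at most 0.43 on the log2 scale and those of the 5 class II members began at 0.52 or above. Apart from H2-D1 without control 4 (0.02) and Tap1 without control 3 (-0.02), no class I member changed sign when a mouse was left out.

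The classes were then set against each other within each mouse, as ratios of raw counts that do not depend on library scaling. H2-Aa to H2-K1 was 0.266, 0.241, 0.286 and 0.472 in controls and 0.913, 1.06, 1.10 and 0.671 in Dnm2 +/K562E mice, without overlap. The mean log2 ratio differed by 1.59 ± 0.27 between genotypes (SE, n = 4 and 4, exact two-sided permutation test, p = 0.0286, adjusted over 3 ratios p = 0.0429). Cd74 to B2m was 0.288, 0.351, 0.374 and 0.65 in controls and 0.899, 1.07, 1.03 and 0.66 in Dnm2 +/K562E mice. The groups lay close but did not overlap, and the difference was 1.18 ± 0.30 on the log2 scale (exact permutation test, p = 0.0286, adjusted p = 0.0429). For the transactivators, Ciita to Nlrc5 was 0.279, 0.225, 0.398 and 0.524 in controls and 1.12, 1.29, 1.30 and 0.493 in Dnm2 +/K562E mice. Dnm2 +/K562E mouse 4 lay among the controls here, and the difference of 1.54 ± 0.43 on the log2 scale did not pass (exact permutation test, p = 0.0571, adjusted p = 0.0571). The smallest p that 4 against 4 mice allow is 0.0286, and these 3 tests were added after the values had been seen.

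Among the class II members the proportions moved little. Cd74 to H2-Aa was 2.46 ± 0.085 in controls and 2.31 ± 0.116 in Dnm2 +/K562E mice (ratio of counts, SD, n = 4), and H2-Aa to H2-Ab1 was 1.38 ± 0.091 and 1.31 ± 0.081. H2-Aa to Ciita was 24.4 ± 3.17 and 25.6 ± 6.69. In each of these ratios the genotypes overlapped. On the class I side, H2-D1 to H2-K1 was 1.64 ± 0.0941 in controls and 1.82 ± 0.171 in Dnm2 +/K562E mice, also with overlap. B2m to H2-K1 and H2-D1 together was higher in Dnm2 +/K562E mice, at 0.842 ± 0.0368 against 0.72 ± 0.0557 in controls. Its ranges met only at the edge (0.672 to 0.793 in controls and 0.793 to 0.874 in Dnm2 +/K562E mice).

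**Figure D3:**
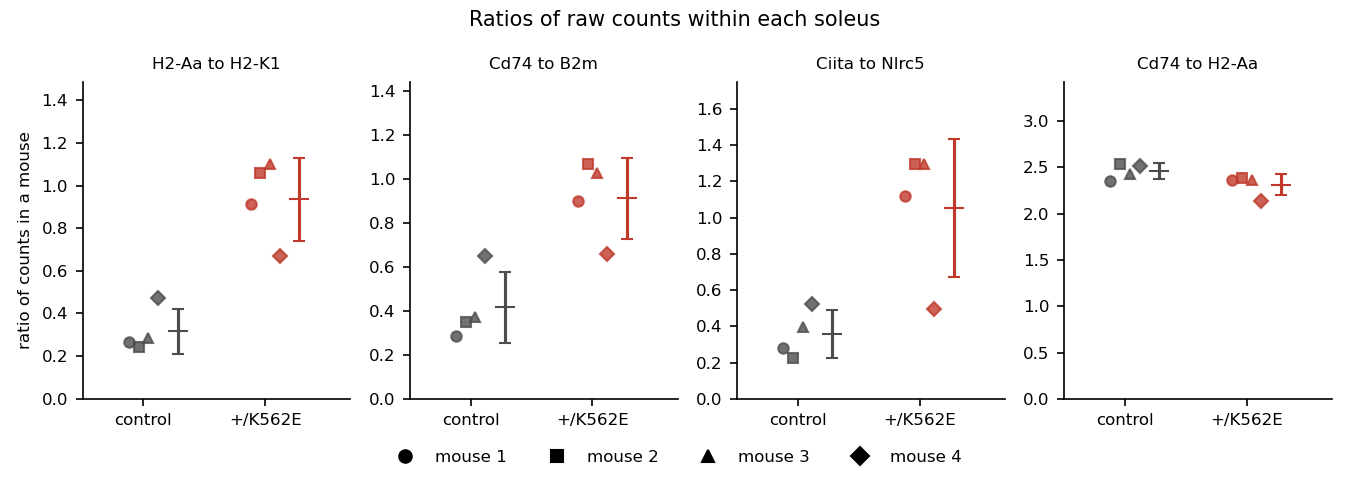
Ratios of raw counts of 2 genes within each mouse (vertical axes, linear, starting at 0) in 4 control (grey) and 4 Dnm2 +/K562E (red) mice, with mean and SD beside the points. The ratios of H2-Aa to H2-K1 and of Cd74 to B2m lie above all controls in Dnm2 +/K562E mice and that of Ciita to Nlrc5 overlaps, with mouse 4 (diamond) the lowest mutant at 0.671, 0.66 and 0.493, whereas the ratio of Cd74 to H2-Aa stays between 2.14 and 2.54 in all mice.

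Levels were compared between genes only per kilobase of the principal transcript. In controls the order was B2m (228 ± 25.4 normalized CPM per kb, SD, n = 4), H2-D1 (80.9 ± 12.8), H2-K1 (64.0 ± 8.83), Cd74 (58.8 ± 28.1), H2-Aa (29.7 ± 13.5), H2-Ab1 (20.02 ± 8.80), H2-Eb1 (12.8 ± 4.82), Tap1 (2.59 ± 0.56), Nlrc5 (0.523 ± 0.141) and Ciita (0.236 ± 0.128). Only B2m from H2-D1, H2-Eb1 from Tap1 and Tap1 from Nlrc5 were neighbours whose ranges over the controls did not overlap. In Dnm2 +/K562E mice Cd74 (137 ± 20.8 normalized CPM per kb) stood next to B2m (249 ± 28.4) and above H2-D1 (77.6 ± 5.50), without overlap with either. H2-Aa (73.7 ± 8.10) overlapped H2-D1, and H2-Ab1 (52.5 ± 5.27) overlapped H2-K1 (56.0 ± 8.48). Ciita (0.577 ± 0.183) and Nlrc5 (0.455 ± 0.102) changed places but overlapped. With the union of all annotated exons as length, H2-Aa was 8.81 in controls and 21.9 in Dnm2 +/K562E mice, below H2-Ab1 and H2-Eb1, and Cd74 was above H2-K1 in controls (49.3 against 35.3). In Dnm2 +/K562E mice H2-Aa was then far below H2-D1 (63.2), so the order within and between the classes depends on the length taken.

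The members also moved together from mouse to mouse. After the genotype mean was subtracted from log2 CPM, the 10 pairs of class II members had Pearson correlations between 0.87 and 0.99 (median 0.95) over the 8 mice. The 10 pairs of class I members had 0.02 to 0.95 (median 0.84), with the 4 pairs that include Tap1 at 0.48 or lower. The 25 pairs across the classes had 0.19 to 0.66 (median 0.42). These values describe 8 mice whose levels share 1 scaling step. Over the 7 mice without control 4 the ranges were 0.62 to 0.99 within class II (median 0.82), -0.28 to 0.94 within class I (median 0.79) and -0.33 to 0.33 across the classes (median -0.06). Among all other tested genes, those most like the mean of H2-Aa, H2-Ab1, H2-Eb1 and Cd74 were Alox5ap (r = 0.979), which encodes the activator of 5-lipoxygenase in leukotriene synthesis, Capn5 (0.979), a calpain protease, Gpr141b (0.978), Bmp1 (0.977), a procollagen-processing protease, and Il1rl1 (0.976), the interleukin 33 receptor. Those most like the mean of H2-K1, H2-D1, B2m and Tap1 were Fgr (0.991), a Src-family kinase, Galk2 (0.975), a sugar kinase, Cenpl (0.973), a centromere protein, Pde3b (0.969), a phosphodiesterase, and Bid (0.969), a pro-apoptotic member of the BCL2 family. This likeness holds within genotypes only. Unlike the class I members, Fgr, Galk2 and Bid were higher in Dnm2 +/K562E mice, by 2.24, 0.99 and 2.05 on the log2 scale (edgeR adjusted p = 0.00393, 0.00012 and 0.000184). Cenpl (0.49) and Pde3b (0.41) did not pass. Fgr and Cenpl were low, with control means of 0.335 and 0.904 normalized CPM. Ciita followed the class II mean with r = 0.902, and Nlrc5, which was not part of the class I mean, followed it with r = 0.949. Without control 4 these were 0.909 and 0.981, and the genes most like each class ran from 0.712 (Gpr141b) to 0.978 (Capn5) with the class II mean and from 0.945 (Bid) to 0.986 (Fgr) with the class I mean. For class II their ranks among the other genes were then 4 (Capn5), 11 (Il1rl1), 27 (Alox5ap), 226 (Bmp1) and 644 (Gpr141b), and for class I from 3 (Fgr) to 44 (Bid). They were picked as the highest of many correlations over few mice and are a description without a test. Csf1r then had 0.989 with the class II mean.

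Around the members, the genes that prepare and load class II molecules rose with them. Of 10 such genes in the files 8 were tested, 7 were called higher and 0 lower, with a median log2 fold change of 1.00 (7 higher and a median of 1.20 without control 4). H2-DMa and H2-DMb1, the chains of the editor that exchanges peptides on class II, changed by 1.14 ± 0.27 and 1.50 ± 0.26 on the log2 scale (SE, edgeR adjusted p = 0.00581 and 0.000876). Ctss (cathepsin S), which trims the invariant chain, went from 12.1, 8.17, 8.56 and 17.1 normalized CPM in controls to 46.1, 33.2, 33.5 and 32.4 normalized CPM in Dnm2 +/K562E mice, a log2 fold change of 1.66 ± 0.22 (SE, edgeR adjusted p = 0.000142). The general lysosomal proteases Ctsl and Lgmn rose by 0.68 and 0.59, and the lysosomal thiol reductase Ifi30 by 0.90 on the log2 scale. H2-DMb2, at 1.10, is also a call, but 36.6% of its 31-base stretches recur elsewhere, mainly in H2-DMb1. Of the stretches of H2-DMb1, 31.4% recur in H2-DMb2, so the separate values of both genes are less certain. H2-Ob, a chain of the H2-DM inhibitor, had a log2 fold change of 0.44 and did not pass (adjusted p = 0.441), and H2-Oa and H2-Eb2 were too low to be tested.

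The factors that bind beside CIITA and NLRC5 at these promoters showed no call. Of 7 tested genes (Rfx5, Rfxap, Rfxank, Nfya, Nfyb, Nfyc and Creb1), 0 met both thresholds, and their median log2 fold change was -0.21. On the adjusted p alone 1 was higher (Rfx5, 0.45) and 4 were lower (Rfxap, Nfyb, Nfyc and Creb1, from -0.52 to -0.21), beside 22.2% and 21.7% of all tested genes.

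The class I pathway beyond the members, here and among the other heavy chains below, is given beside the shares of all tested genes. These were 12.9% called higher and 7.85% called lower. For peptide supply, 0 of 7 tested genes were called higher and 1 lower, with a median of -0.18. The call was Psme1, a subunit of the PA28 proteasome activator, at 36.5, 37.8, 33.6 and 31.4 normalized CPM in controls and 22.3, 21.5, 22.4 and 24.4 normalized CPM in Dnm2 +/K562E mice (log2 fold change -0.62 ± 0.08, edgeR adjusted p = 8.86e-05). The immunoproteasome subunits Psmb8 and Psmb9 were at 0.03 and -0.18 on the log2 scale without passing, and Psmb10 at 0.48 passed the adjusted p alone. Of 6 folding genes 0 were called, with a median of 0.39 and all values above 0 (0.05 to 0.48), and Tapbpl, Calr, Canx and Pdia3, general chaperones among them, were higher by 0.37 to 0.48 on the log2 scale with an adjusted p under 0.05. Tap1 to its partner Tap2 was 0.403 ± 0.0527 in controls and 0.503 ± 0.0652 in Dnm2 +/K562E mice (ratio of counts, SD, n = 4) without overlap. The highest control (0.4509) nearly touched the lowest Dnm2 +/K562E mouse (0.4545), and neither Tap1 nor Tap2 (log2 fold change -0.21) was called.

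Of the other class I heavy chain genes, 12 of 14 were tested, 1 was called higher and 2 lower, and their median log2 fold change was 0.01. Fcgrt, the neonatal Fc receptor that recycles IgG and albumin, rose by 0.59 ± 0.10 (SE, edgeR adjusted p = 0.000647). Mr1, which shows vitamin B metabolites to MAIT cells, read 39.3, 36.5, 31.8 and 36.2 normalized CPM in controls and 19.2, 22.2, 20.1 and 17.1 normalized CPM in Dnm2 +/K562E mice, and fell by 0.87 on the log2 scale (edgeR adjusted p = 3.59e-05). H2-T24 fell by 0.74 (edgeR adjusted p = 0.0125), a call that was lost without control 4. The remaining 9 tested genes lay between -0.31 and 0.36 on the log2 scale and did not pass. Many of these genes are near copies of one another (H2-T22 shares 67.4% of its stretches, H2-Q4 53.1%), so their separate values are uncertain.

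**Figure D4:**
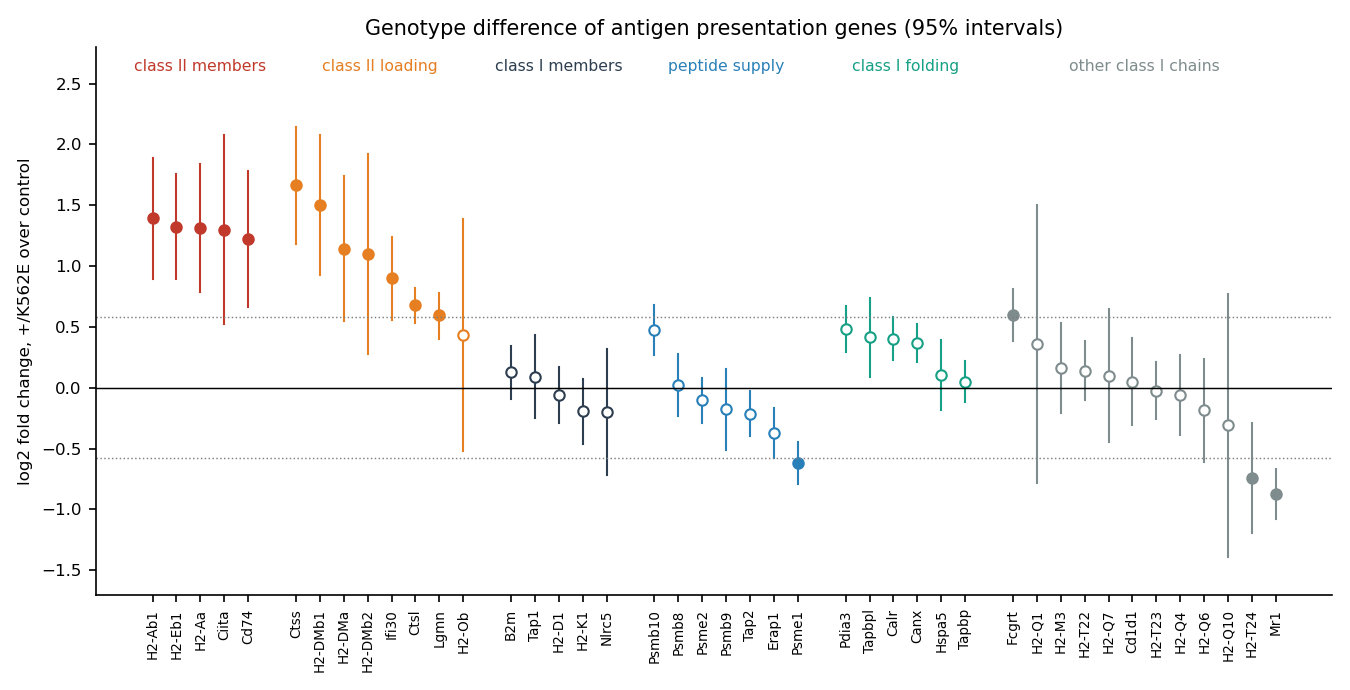
Log2 fold change (vertical axis) of Dnm2 +/K562E over control for the tested members and genes of 4 neighbouring lists, with 95% intervals, filled points for called genes, open points for the others, and dotted lines at the threshold of 0.58 in each direction. The 5 class II members and 7 of 8 class II loading genes are filled above 0.58, the 5 class I members scatter around 0, and Psme1, H2-T24 and Mr1 are filled below -0.58.

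Interferon gamma, the classical inducer of both classes, was nearly undetected, since Ifng had 0 counts in 6 mice and 1 count in 2. Of 9 tested genes of its signalling path (among them its receptors, Janus kinases and IRF factors), 0 were called, with a median log2 fold change of -0.09. Among the genes that passed the adjusted p alone, its receptor chain Ifngr1 was higher by 0.44 and the kinase Jak2 lower by 0.35 on the log2 scale. Among 12 interferon-induced genes, 1 was called higher, 1 lower and the median was -0.26. The gene called higher was the chemokine Cxcl10, with 1, 3, 1 and 18 counts in controls and 25, 53, 80 and 25 counts in Dnm2 +/K562E mice (edgeR adjusted p = 0.0104). Isg15, a ubiquitin-like protein, was the gene called lower and fell by 0.68 on the log2 scale (edgeR adjusted p = 0.00986), and this call too was lost without control 4.

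Among markers of cells that can carry class II, those of macrophages moved with the class II members. Of 10 macrophage markers, 9 were called higher (median log2 fold change 1.19, and 9 with a median of 1.43 without control 4), among them Csf1r, C1qa and Cd68, and Mertk was not (-0.12). Their summed level was 138, 146, 149.9 and 254 normalized CPM in controls 1 to 4 and 459.7, 377, 353 and 279.6 normalized CPM in Dnm2 +/K562E mice 1 to 4. The order of the mice was nearly that of the class II sum, with control 4 the highest control and mouse 4 the lowest mutant. Fibroblast markers also had these 2 mice in those places. Their sums were 979.5, 907.6, 967.8 and 1286 normalized CPM in controls and 2060, 2238, 2025 and 1712 normalized CPM in Dnm2 +/K562E mice. The ratio of H2-Aa counts to the summed counts of the macrophage markers was 0.19 ± 0.0225 in controls and 0.23 ± 0.0223 in Dnm2 +/K562E mice (SD, n = 4), and H2-Aa to Csf1r was 0.982 ± 0.103 and 1.13 ± 0.152, with overlap in both. Over the 3 controls other than control 4 these ratios were 0.179 ± 0.007 and 0.93 ± 0.0152, below every Dnm2 +/K562E mouse. In whole muscle, more cells of a type and more RNA per cell cannot be told apart, and the part of cell numbers in the class II result was not tested.

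Other markers gave the following values. Of 7 tested dendritic cell markers 2 were called higher, Itgax (log2 fold change 2.71) and Flt3 (1.45), the latter with 3 to 46 counts per mouse, Zbtb46 (-0.51) was lower on the adjusted p alone, and the sum of the list overlapped between genotypes (13.9 to 23.2 and 19.6 to 26.8 normalized CPM). Zbtb46 made up most of that sum in controls. Without it, a step taken after its values were seen, the sums were 2.67 to 6.36 and 8.16 to 13.3 normalized CPM and did not overlap. Itgax alone gave 0.493 to 1.04 of these sums in controls and 3.94 to 6.65 in Dnm2 +/K562E mice. With all 8 mice Xcr1, Clec9a, Batf3 and Cd209a were not called, so the separation is not one of the list as a whole. Without control 4, 5 of 8 tested dendritic cell markers were called higher (Itgax, Flt3, Xcr1, Ccr7 and Cd209a). B cell markers summed to at most 2.77 normalized CPM and T and NK cell markers to at most 1.85 in any mouse, 0 of 2 and 0 of 1 tested genes were called, and none of the defining genes was at 0 in every mouse. Endothelial markers, from cells that carry class I, were lower, with 1 of 5 called (Kdr) and sums of 921 to 968 in controls and 651 to 751 normalized CPM in Dnm2 +/K562E mice. Of the fibroblast markers 4 of 5 and of the tendon markers 4 of 4 were called higher, nerve markers gave 0 calls of 4, and 2 of 6 soleus fibre genes (Ckm and Myh2) were called lower. The part of these shifts in the class I and class II values was not tested.

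**Figure D5:**
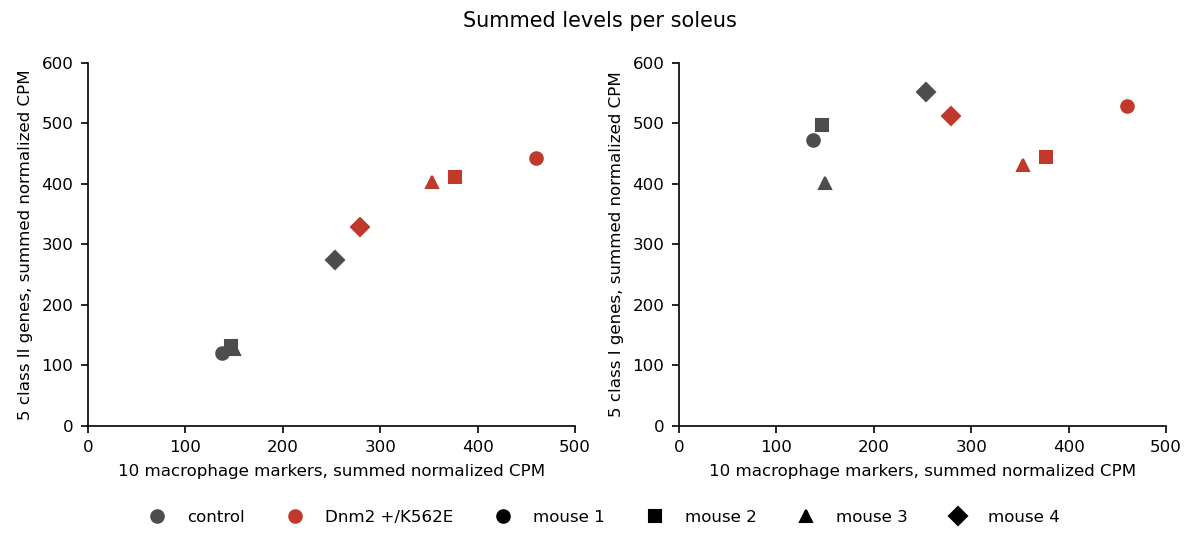
Summed normalized CPM of 10 macrophage markers (horizontal axis) against the summed normalized CPM of the 5 class II members (left) and of the 5 class I members (right), 1 point per mouse, grey for control and red for Dnm2 +/K562E. The class II sum (121 to 274 in controls, 329 to 443 in Dnm2 +/K562E mice) follows nearly the order of the markers, while the class I sum (402 to 552 and 432 to 529) overlaps between genotypes.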

How the data were processed

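Labels and the study's methods give 8 soleus libraries, 4 per genotype, of separate mice. The authors deposited raw counts per gene without normalization, made with Trimmomatic 0.33, STAR 2.5.1b (genome GRCm38) and featureCounts. Reads on overlapping genes were counted for all of them. Multi-mapping reads were set to count at their primary alignment, but a minimum mapping quality was also required, which may have dropped such reads. Strand use is not given in the sources used here. The methods describe poly A-enriched RNA, the labels a total RNA kit.

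Identifiers were named with GENCODE M21 (22647 of 22880 matched). In R 4.3.3, edgeR 4.0.16 filtered (filterByExpr, minimum count 10, minimum total 15), scaled by TMM and tested genotype with the quasi-likelihood F-test. Alternatives were edgeR's exact test, DESeq2 1.42.0, other scaling, filters and thresholds, replicate blocks and leaving out each mouse. The 31-base stretches of transcripts were compared between genes, and ratios were tested with scipy 1.17.1. The fits were also run on simulated counts as a check of the code. These had the same dispersion for all genes and few changed genes, a simpler setting than the real data. Depth was 33407430 to 48832814 counts per mouse. All 10 members and, per pathway list, the called genes of smallest p (at most 5) were named. Cell type markers and other genes were named after their values were seen. Members, lists and motifs were chosen with earlier results of these data known. H2-Ea-ps, H2-K2 and H2-T10 were not analysed here. A gene of the interferon gamma signalling list is counted with its list but its own values are not reported here.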

Additional observations from a re-analysis of the deposited data

Results flagged for a closer look

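Control 4 lay far above the other controls in each of the 5 class II members, and for none of the class I members did a mouse lie so far from the rest of its group. In a group of 4 mice this was taken as a gap to the nearest mouse above the 95% critical value of Dixon's test, which chance gives in about 1 of 20 groups, and 20 groups were looked at. H2-Aa was 56.3 normalized CPM in control 4 against 27.1 in the next control, H2-Ab1 40.2 against 20.1 and H2-Eb1 33.4 against 17.6. Cd74 was 142 normalized CPM in control 4 against 68.7, and Ciita 2.56 against 1.16. The 5 genes rise and fall together, so these are not 5 separate events. The same mouse had the highest macrophage marker sum among controls, 254 normalized CPM against at most 149.9 in the others. Its fibroblast marker sum, 1286 normalized CPM, was also the highest of the controls.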

How the results depend on the processing

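All 5 class II members were called higher and 0 class I members were called in any alternative run. The median log2 fold change of the class II members ran from 1.20 to 1.68 and that of the class I members from -0.15 to 0.02 with 1 mouse left out. With library size alone the median of all genes moved to 0.22, and the class I median (0.15), H2-K1 (0.02), H2-D1 (0.15) and Nlrc5 (0.01) turned from below to above 0, while B2m was at 0.34 and Tap1 at 0.30. With 1 mouse left out Tap1 ran from -0.02 (without control 3) to 0.18, and without control 4 H2-D1 was 0.02. Over all tested genes 12.9% were called higher and 7.85% lower. Of the genes in the neighbouring lists (loading, promoter factors, class I, interferon and costimulation), 12 were called higher (7 of them loading genes) and 4 lower. Leaving out a mouse gave 9 to 12 higher and 2 to 5 lower, with 2 lower without control 4, library size alone gave 18 higher and 1 lower, and without a fold change threshold 19 were higher and 14 lower. The cause was not tested, except that the last follows from the wider call.

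The mice of the same number are different animals. As a replicate block, the title numbers gave 1637 genes higher and 1036 lower over all genes against 1806 and 1099 without a block, and left the 5 class II calls in place. Deviations of same-numbered mice correlated at -0.114 on average. With the numbers of the descriptions, which order the mutants differently and of which 1 carries another mutation name than the title, the average was -0.0302. No pairing by number was seen, but so few mice cannot exclude one. The block of description numbers gave 1739 higher and 1083 lower, with the 5 class II calls. With 1 mouse left out, the ratio differences ran from 1.48 to 1.80 (H2-Aa to H2-K1), 1.03 to 1.42 (Cd74 to B2m) and 1.34 to 1.87 (Ciita to Nlrc5) on the log2 scale. The smallest p such a test allows, 0.0571, cannot pass the threshold. Depth limits the genes with under 200 counts in any mouse, among them Ciita, Nlrc5, H2-DMb1, H2-DMb2, Cd80, Cxcl10, Flt3 and the lymphocyte markers.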

Other observations

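Genes of the second signal that T cells need from an antigen-presenting cell were also followed. Of 5 tested genes of costimulation, 3 were called higher and 0 lower, with a median log2 fold change of 0.60. Cd80, a ligand of CD28, read 0.417, 0.832, 0.605 and 0.707 normalized CPM in controls and 2.34, 1.86, 2.77 and 1.92 normalized CPM in Dnm2 +/K562E mice, a log2 fold change of 1.79 ± 0.26 (SE, edgeR adjusted p = 0.00029). Every Dnm2 +/K562E mouse was above every control, and control 4 was not the highest control. Cd86, the other CD28 ligand, changed by 1.39 ± 0.32 and Icosl, the ligand of ICOS, by 0.60 ± 0.16 on the log2 scale (SE, edgeR adjusted p = 0.00546 and 0.0105). Cd40 had a log2 fold change of 0.53 and did not pass (adjusted p = 0.189), and Cd274, the inhibitory ligand PD-L1, had -0.51, which passed the adjusted p alone (0.047).

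Itgax, the integrin CD11c found on dendritic cells and some macrophages, had the largest log2 fold change among the dendritic cell markers and did not share the order of the class II members. Its level was 1.04, 0.713, 0.493 and 0.972 normalized CPM in controls and 6.65, 6.35, 3.94 and 3.97 normalized CPM in Dnm2 +/K562E mice. Control 4 was not the highest control. The correlation of its deviations with the class II mean was 0.428 over 8 mice, against 0.762 (Cd68) to 0.96 (C1qa) for 5 other myeloid markers (Cd68, Cd209a, Adgre1, Csf1r and C1qa), given as a description. Over the 7 mice without control 4 it was 0.411, against 0.556 (Cd68) to 0.989 (Csf1r) for the same 5, so the distance to Cd68 narrowed.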
